A study of Mus musculus with 19 samples.

Results

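The genes described here are 35 transcripts that mark the endothelium of the liver, most of all liver sinusoidal endothelial cells (LSECs), measured in Kupffer cells (KCs) sorted from mouse liver. They were taken by name from a list and not from their values. All 35 had a probeset assigned to that gene symbol alone, and they were described among 19938 genes measured in the same way on 19 arrays. For Clec4g, which had 2 such probesets, the one with the higher mean was used.

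The study compared resident, embryonically derived KCs (em-KCs) with monocyte-derived KCs (mo-KCs) that refill the liver after KC depletion. Em-KCs were on 11 arrays: 3 from KC-DTR mice without diphtheria toxin (DT), 1 from a WT littermate without DT, 2 from WT littermates at day 15 and 2 at day 30 after DT, and 3 from separate WT mice. Mo-KCs came from KC-DTR mice given 50 ng DT, 3 arrays being of day 15 and 5 of day 30. The KC-DTR mouse carries the DT receptor as a knock-in in the Clec4f locus, so the receptor is made where Clec4f is active, and all mice were on a C57Bl/6 background and between 6 and 12 weeks old when the liver was taken. The livers were perfused and digested with collagenase, and KCs were sorted by flow cytometry as CD45+ cells with Clec4F, the Adgre1 protein (a macrophage antigen) and intermediate CD11b but without Ly6C, Ly6G or SiglecF, a gate that held no endothelial marker. The labels call the arrays of a condition biological replicates.

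LSECs line the liver sinusoids. They form a fenestrated wall with no continuous basement membrane, take up waste molecules from the blood through scavenger receptors, and send Wnt, R-spondin and BMP signals to hepatocytes. KCs sit in the sinusoid attached to these cells, with processes reaching through the wall. Most of the listed genes are used as endothelial markers, but not every one is confined to that lineage, and Cdh5 has also been counted among the genes of mouse KCs.

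KC markers as a list were measured on all arrays, with a mean log2 expression of 10 markers between 11.60 and 12.45 on the 19 arrays. Single markers differed more. Timd4 had 11.70 to 12.02 in em-KCs, 7.88 to 8.36 in day 15 and 9.38 to 9.86 in day 30 mo-KCs. All 10 markers had negative differences from em-KCs at both days. Of them 2 passed as lower at day 15 and 3 at day 30 (limma, adjusted p under 0.05), against 0.502% and 0.787% of all genes in either direction. Endothelial transcripts were measurable beside the KC markers, as all 35 genes had a mean over the arrays above 5.34. That level is the 95th percentile of 1194 odorant and vomeronasal receptor genes, which are expected to be silent in liver. Of all 19938 genes, 64.1% lay above that level. Probesets differ in affinity, so this level is a guide only, and log2 values of different genes are not set against each other here. In sorted bulk samples, fewer cells of a type and less RNA per cell cannot be told apart.

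The arrays fell into 2 sets by sex-linked transcripts. On the 3 WT em-KC arrays and on day 30 mo-KC replicates 3 to 5, Xist lay between 8.72 and 9.51 and the mean of the Y-linked genes between 3.97 and 4.18, whereas on the other 13 arrays Xist lay between 4.07 and 4.53 and the Y-linked mean between 7.33 and 7.83. The 6 arrays are called Xist-high below. The labels give neither sex nor an array batch, and the sources used here name none for single samples. Since every WT em-KC array was Xist-high and no em-KC array of the colony (KC-DTR mice with their littermates) was, the 2 kinds of em-KC and the 2 array sets cannot be told apart.

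Endothelial genes are known for ETS factor binding words in their control regions, often beside GATA and SOX words. Sequences of the region from 250 bases before to 50 bases after a start site were at hand for 19 of the 35 genes, in 21 windows (RefSeq, build GRCm38.p6). ETS words (ACCGGAAG, CCGGAAGT, ACAGGAAG or ACAGGAAA, read on both strands) lay in 5 of the 21 windows, or 23.8%, against 3602 (11%) of all 32851 windows of that length. The matches were in Tie1 (an angiopoietin pathway receptor), Emcn (a sialomucin), Egfl7 (a secreted factor, at each of 2 start sites) and Ushbp1. They are shown because these genes are described below, each as 5′ to 3′ sequence of the gene's strand with the word, or its reverse complement, in capitals.
Egfl7, first start site (chr2:26580981-26581010, plus strand): ctgggagacaaACAGGAAGgccatctctct
Egfl7, second start site (chr2:26583772-26583801, plus strand): agagaacacacACAGGAAGtccggcgggaa
Emcn (chr3:137340893-137340922, plus strand): aagaagggtctCTTCCTGTtcaaatcccat
Tie1 (chr4:118490041-118490070, minus strand): ggcttcctcccTTTCCTGTctcccgtgctc
Ushbp1 (chr8:71395847-71395876, minus strand): gggtaggggggCTTCCTGTttcccagcccc
The GATA words AGATAAG and TGATAAG and the SOX words ACAATGG and ACAATAG were rarer, each family lying in 1 window of 21 (4.8%), against 5.2% and 5.9% of all windows. Both matches lay in the window of Tek, the angiopoietin receptor gene that is the paralogue of Tie1, and they are shown with the word in capitals.
Tek, GATA word (chr4:94739314-94739338, plus strand): gcaggagcagaAGATAAGccttgga
Tek, SOX word (chr4:94739213-94739241, plus strand): agaggatacccCTATTGTtcctgaaaatg
A match is a run of letters and not a measured binding site.

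Over the 35 genes, the mean log2 expression per array lay between 8.11 and 9.10. Em-KCs had 8.67 ± 0.26 (SD, n = 11), mo-KCs of day 15 had 8.76 ± 0.13 (SD, n = 3) and those of day 30 had 8.61 ± 0.26 (SD, n = 5). These 3 groups overlapped, and the span within em-KCs, from WT em-KC replicate 2 at the bottom to the untreated littermate at the top, was wider than any difference between the groups. By condition, the 3 untreated KC-DTR arrays lay close together, at 8.64, 8.72 and 8.69. The littermates had 9.10 without DT, 8.77 and 8.44 at day 15 and 8.65 and 8.96 at day 30 after DT. The WT em-KCs had 8.80, 8.11 and 8.53, the day 15 mo-KCs 8.77, 8.89 and 8.62, and the day 30 mo-KCs 8.82, 8.89, 8.48, 8.25 and 8.63. At day 30 the first 2 arrays were the highest of their group, and the 3 Xist-high arrays lay below both.

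**Figure D1:**
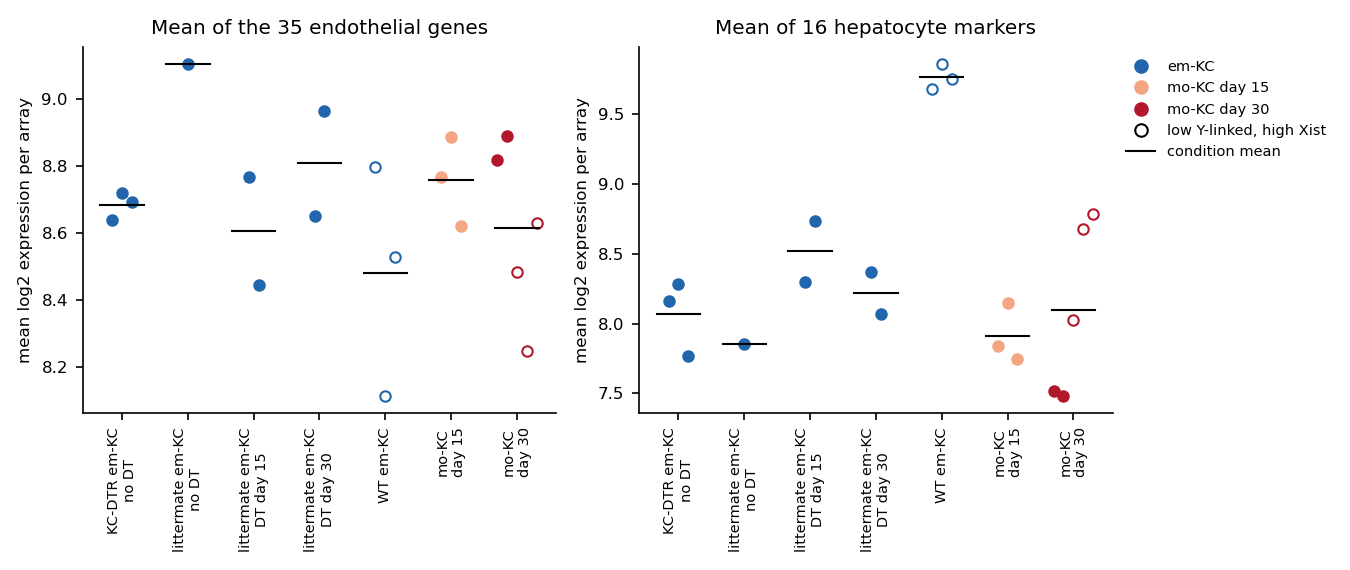
Mean log2 expression per array of the 35 endothelial genes (left) and of 16 hepatocyte markers (right), by condition; points are arrays, open points the 6 Xist-high arrays, and bars the mean of a condition. The endothelial means of em-KCs and of mo-KCs of both days overlap, and the 3 WT em-KC arrays stand above all others in hepatocyte markers at 9.68 to 9.86.

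The same few arrays set the extremes for many genes. WT em-KC replicate 2 had the lowest value of 19 for 19 of the 35 genes, and day 30 mo-KC replicate 4 for 7. The untreated littermate had the highest value for 18, and day 30 mo-KC replicate 5 for 5. The genes differed in how far they ranged: Emcn, whose product coats the luminal face of veins and capillaries, had the widest spread at an SD of 0.57 and a range of 2.22 (4.66-fold), whereas Wnt9b, a Wnt ligand of central vein endothelium, had an SD of 0.14 and Plvap, the diaphragm protein of fenestrae and caveolae, one of 0.16.

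Within conditions, the genes varied together. After the mean of each of the 7 conditions was taken off, the median Pearson correlation over the 595 pairs of these genes was 0.559. Of these pairs 55.1% were above 0.5, against a median of 0.004 and 6.09% over all pairs of the 19938 genes. The untreated littermate, alone in its condition, adds nothing to these correlations. All 35 genes but only 64.1% of the 19938 had a mean above the guide level, and the part of dim genes in this contrast was not tested. The arrays of a pair are the same RNA samples, so any difference in the make-up of a sample enters both genes. Ptprb, the receptor phosphatase that acts on Tek, had the highest median correlation with the other 34 genes at 0.770 and its closest partner was F8, the coagulation factor VIII gene, at 0.972. Stab2 paired with Ptprb at 0.971, Kdr with F8 at 0.972, and Cdh5 with Nrp1 at 0.944. At the other end lay Sox17 (median 0.068), Wnt2 (0.071), Rspo3 (-0.056) and Wnt9b (-0.175), a transcription factor and the 3 Wnt pathway ligands. Their means over the arrays, at 5.42, 6.27, 5.54 and 5.70 in that order, were not far above the guide level of 5.34. All but Wnt9b lay under that level on some arrays. The part of low signal in these low medians was not tested.

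When the deviations were taken within condition and array set, a choice made after seeing the data, the median over pairs of these genes was 0.550. The lowest medians were then those of Wnt9b (-0.077), Plvap (0.063), Wnt2 (0.168), Rspo3 (0.209) and Cdh5 (0.219). The median correlation of the 35 genes with 58 other endothelial genes was 0.364, and 0.345 within array sets. With 16 hepatocyte markers it was -0.316 and -0.091, with 15 stellate cell markers -0.041 and 0.127, with 10 KC markers 0.137 and -0.012, and with 6 platelet markers -0.025 and 0.010. Of these lists, that of the other endothelial genes had the highest median with either set of deviations.

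**Figure D2:**
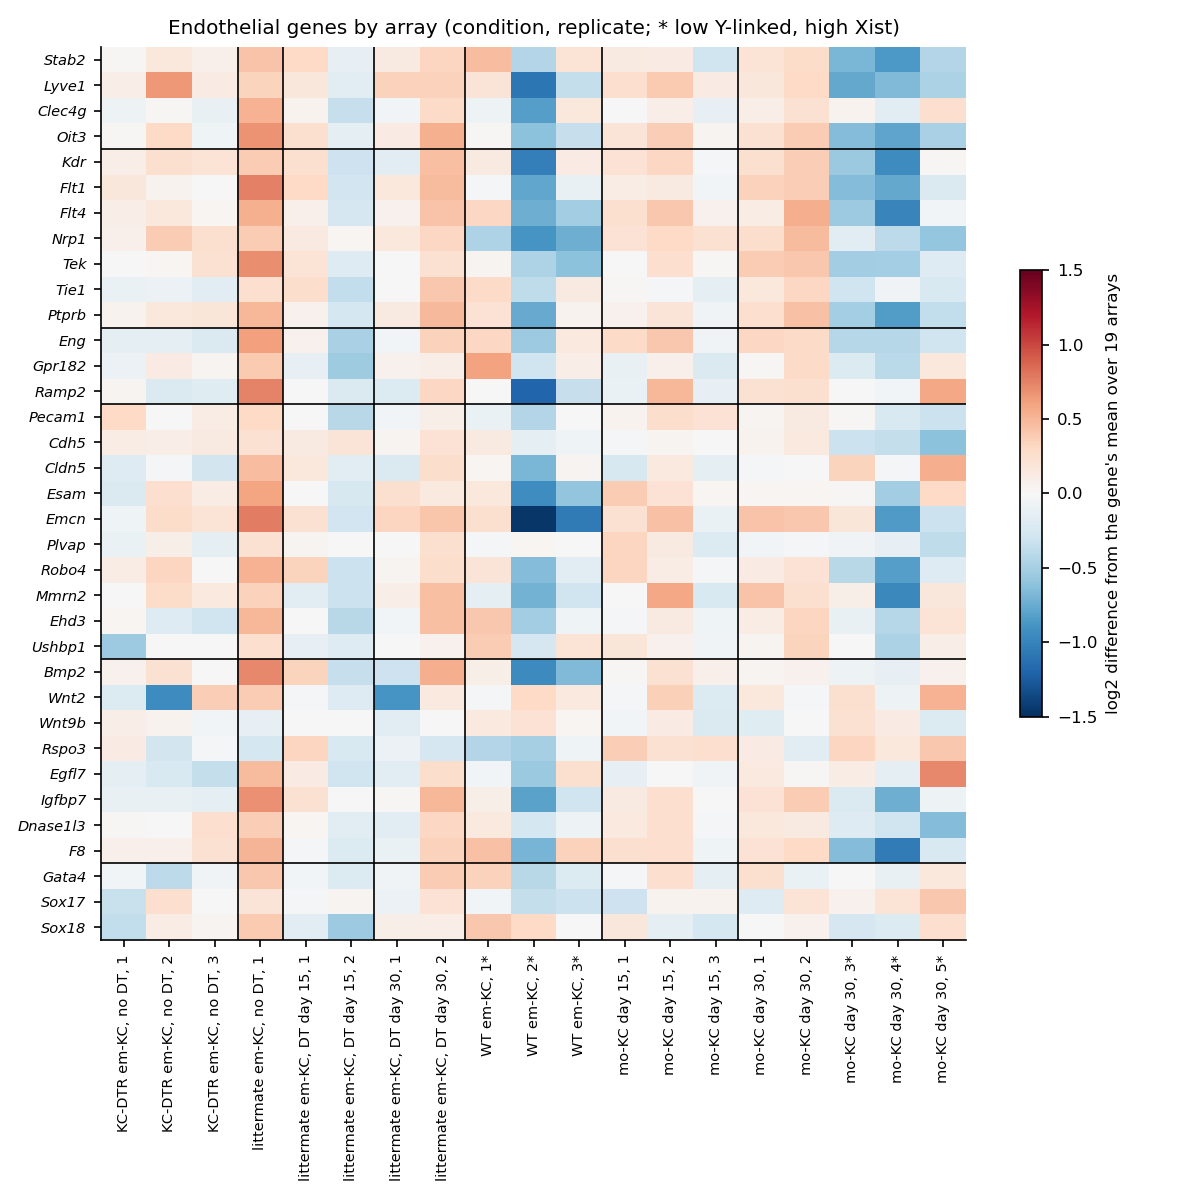
Log2 difference of each of the 35 endothelial genes from its own mean over the 19 arrays; rows are genes grouped by role, columns are arrays grouped by condition, and an asterisk marks an Xist-high array. Single columns run in one colour over most rows: WT em-KC replicate 2 holds the lowest value for 19 genes and the untreated littermate the highest for 18.

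Day 15 mo-KCs were compared with em-KCs to ask whether newly settled, monocyte-derived KCs carry the same endothelial transcripts as resident KCs. None of the 35 genes passed the test at day 15 (limma, Benjamini-Hochberg adjusted over all genes, smallest adjusted p = 0.312), where 0.502% of all genes did. At an unadjusted p under 0.05 there was 1, Rspo3, where 595 of all 19938 genes had a positive and 611 a negative difference. A plain test of the kind named in the methods called 0 of the 35 after adjustment. The differences were above 0 for 26 genes and below 0 for 9, with a median of 0.08 on the log2 scale against -0.01 over all genes. Since all day 15 arrays lie outside the Xist-high set, the median was also taken within the other 13 arrays, where it was -0.01, and it was 0.00 without day 15 replicate 2 and 0.16 without replicate 3. For 21 of the 35 genes the 95% confidence interval lay within 1.5-fold, against 87.8% of all genes, so the comparison was less precise for these genes than for most.

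At day 30 again none of the 35 genes passed the test (limma, smallest adjusted p = 0.146, 0 also by that plain test), against 0.787% of all genes. At an unadjusted p under 0.05 there were 3: Rspo3 with a positive difference, and Cdh5 and Stab2 with negative ones. At that level 1206 of all 19938 genes had a positive and 1376 a negative difference. The median difference was -0.06 against -0.02 over all genes, with 14 genes above 0 and 21 below. The interval lay within 1.5-fold for 23 genes, against 91.1% of all genes, and none of the 35 had day 30 arrays that all lay outside the range of the 11 em-KC arrays, which 0.552% of all genes did. Between day 30 and day 15 mo-KCs no gene passed either (limma, smallest adjusted p = 0.920, 0 at an unadjusted p under 0.05), where 0.0201% of all genes did, and the median difference was -0.21. Without mo-KC day 30 replicate 2, which was not Xist-high, Cdh5 alone of the 35 passed at day 30 (difference -0.41, adjusted p = 0.0312 from limma). In that setting 316 of all 19938 genes passed, against 157 with all arrays. Within the 13 arrays that were not Xist-high the median difference between the days was 0.11, the opposite sign.

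**Figure D3:**
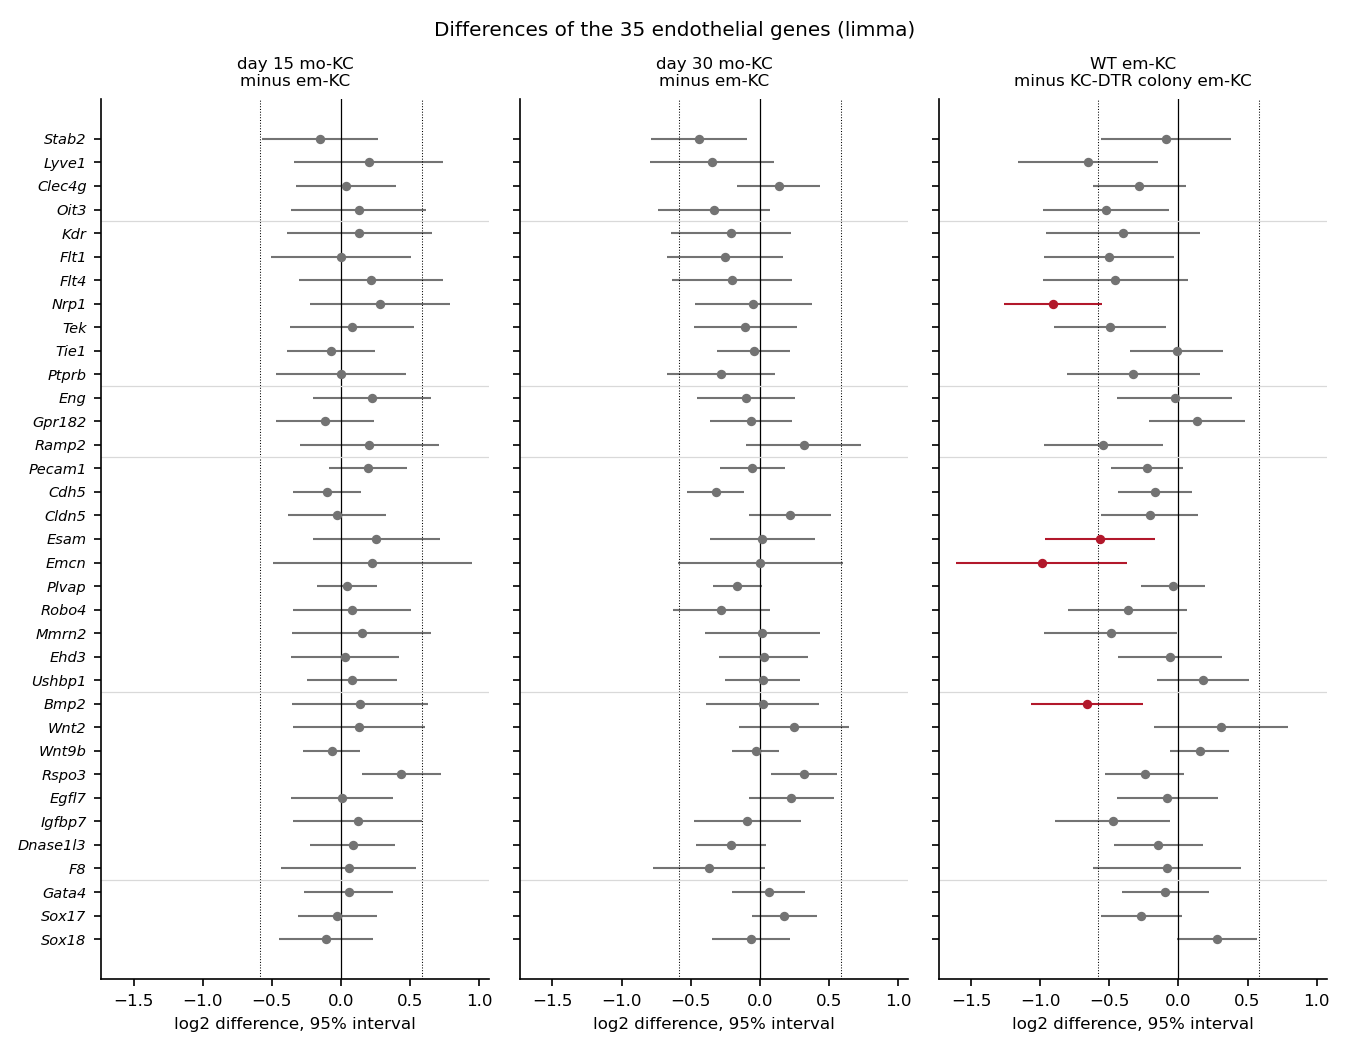
Log2 difference with its 95% confidence interval (limma) of each of the 35 endothelial genes in 3 comparisons, grouped by role; red marks an adjusted p under 0.05 and dotted lines mark 1.5-fold. No gene is red for day 15 or day 30 mo-KCs, and Nrp1, Esam, Emcn and Bmp2 are red, all lower, in WT em-KCs.

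Among the lectins and scavenger receptors, Stab2 encodes the hyaluronan scavenger receptor that defines LSECs. It had 9.68 to 10.59 in em-KCs (median 10.29), 10.26, 10.25 and 9.83 in day 15 mo-KCs, and 10.34, 10.40, 9.44, 9.27 and 9.69 in day 30 mo-KCs. The first 2 day 30 arrays lay inside the em-KC range, replicates 3 and 4 lay under it and replicate 5 at its lower edge, and the day 30 difference was -0.44 (SE 0.17, adjusted p = 0.258 from limma). Lyve1, the hyaluronan receptor of lymphatic and sinusoidal endothelium, spanned 8.03 to 9.77 (median 9.29) in em-KCs, with 9.38, 9.52 and 9.25 at day 15 and 9.29, 9.42, 8.35, 8.46 and 8.65 at day 30. The 3 low day 30 values were again those of the Xist-high arrays, and WT em-KC replicate 2, at 8.03, was lower still. Oit3, a secreted ZP-domain protein gene of LSECs, ran from 9.003 to 10.29 (median 9.64) in em-KCs, with 9.80, 9.98 and 9.65 at day 15 and 9.84, 9.99, 8.96, 8.82 and 9.13 at day 30. Clec4g, the lectin LSECtin, differed by 0.03 (adjusted p = 0.991) at the earlier and by 0.14 (adjusted p = 0.748) at the later day, by limma.

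The VEGF and angiopoietin receptor group held 7 genes, of receptors, co-receptors and the phosphatase Ptprb. All 7 had negative differences at day 30, with a median of -0.20, and 5 of the 7 positive ones at day 15, with a median of 0.08. None passed the test. The sign at day 30 turned with the arrays compared: within the 13 arrays that were not Xist-high all 7 differences were positive, with a median of 0.18, and within the 6 Xist-high arrays 6 of the 7 were negative, with a median of -0.21. Kdr, the main VEGF receptor of endothelium, had 8.31 to 9.79 in em-KCs (median 9.47), 9.56, 9.65 and 9.31 at day 15 and 9.58, 9.71, 8.79, 8.40 and 9.36 at day 30. Flt4, the receptor for VEGF-C, had 7.09 to 8.35 (median 7.89), then 8.06, 8.22 and 7.89, and then 7.94, 8.36, 7.28, 6.83 and 7.78. For both genes day 30 replicates 3 and 4 were the low arrays. Nrp1, a co-receptor for VEGF and semaphorins, had 8.79 to 10.05 in em-KCs (median 9.80), 9.89, 9.97 and 9.90 at day 15 and 9.93, 10.15, 9.51, 9.28 and 9.09 at day 30. The day 15 values lay within 0.08 of each other, the tightest of these 3 genes, and the day 30 difference from em-KCs was -0.05 (SE 0.20) over all arrays. Within each array set the sign was the opposite, with 0.15 in the 13 arrays and 0.31 in the 6 Xist-high arrays (adjusted p = 0.873 and 0.300 from limma).

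Of the other receptors, Ramp2, the partner subunit of the adrenomedullin receptor, had 6.97 to 8.91 in em-KCs (median 7.99), 8.06, 8.67 and 8.04 at day 15 and 8.39, 8.40, 8.18, 8.13 and 8.75 at day 30. Its day 30 difference was 0.32 (SE 0.20, adjusted p = 0.531 from limma), and those of Eng and Gpr182 were -0.10 and -0.06. Eng, the TGF-beta co-receptor endoglin, had 9.28 to 10.43 (median 9.78), then 10.11, 10.22 and 9.77, and then 10.13, 10.11, 9.40, 9.39 and 9.53. Gpr182, an atypical chemokine receptor of sinusoidal endothelium, differed by -0.12 at day 15 and also did not pass.

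Junction and surface genes held 2 of the best known endothelial markers. Pecam1, the adhesion molecule CD31, which some leukocytes also carry, had 8.75 to 9.49 in em-KCs (median 9.19), 9.24, 9.45 and 9.39 at day 15 and 9.23, 9.32, 9.20, 8.95 and 8.86 at day 30. Cdh5, VE-cadherin of the adherens junction, was one of the least variable genes in em-KCs at 11.71 to 12.08 (median 11.98). It had 11.82, 11.89 and 11.85 at day 15 and 11.90, 11.99, 11.53, 11.50 and 11.24 at day 30, where the last 3 arrays lay below every em-KC array and the first 2 lay inside their range. The day 30 difference of Cdh5 was -0.32 (SE 0.10, adjusted p = 0.146 from limma). Emcn had 6.31 to 8.53 in em-KCs (median 7.995), 7.999, 8.20 and 7.67 at day 15 and 8.19, 8.18, 7.95, 6.92 and 7.44 at day 30. Mmrn2, an extracellular matrix protein that binds CD93, had 8.07 to 9.23 (median 8.78), then 8.78, 9.35 and 8.55, and then 9.20, 9.01, 8.87, 7.80 and 8.95. A single low array, replicate 4, set Mmrn2 apart at day 30. Esam, an immunoglobulin-family adhesion molecule of endothelial tight junctions, had 6.21 to 7.73 (median 7.25), then 7.52, 7.36 and 7.16, and then 7.17, 7.17, 7.16, 6.62 and 7.45. Cldn5 (claudin 5 of tight junctions), Robo4 (an endothelial guidance receptor), Plvap, Ehd3 (an endocytic recycling protein) and Ushbp1 had day 30 differences of 0.22, -0.28, -0.16, 0.03 and 0.02, none past the test.

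Rspo3, the R-spondin that amplifies Wnt signals from central vein endothelium, had the smallest p and the largest difference of the 35 genes at day 15. It lay between 5.04 and 5.86 in em-KCs (median 5.31), at 5.90, 5.77 and 5.79 at day 15 and at 5.66, 5.37, 5.86, 5.70 and 5.95 at day 30. On 6 of the 11 em-KC arrays Rspo3 lay under the guide level of 5.34 for silent genes, and on none of the mo-KC arrays, so the size of its difference is uncertain. The groups overlapped, and the differences as measured were 0.43 (SE 0.14, adjusted p = 0.312) and 0.32 (SE 0.11, adjusted p = 0.222) by limma. Its partner ligand Wnt2 had 5.33 to 6.64 in em-KCs (median 6.25), 6.25, 6.62 and 6.06 at day 15 and 6.43, 6.25, 6.503, 6.20 and 6.79 at day 30. Wnt9b differed by -0.07 and -0.03.

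Bmp2, the signal by which LSECs drive hepcidin in hepatocytes, had 8.33 to 10.01 in em-KCs (median 9.35), 9.31, 9.51 and 9.36 at day 15 and 9.32, 9.35, 9.21, 9.16 and 9.35 at day 30. The mo-KC arrays of both days lay close together in the middle of a wide em-KC range. F8 had 8.70 to 9.91 (median 9.48), then 9.65, 9.65 and 9.34, and then 9.62, 9.71, 8.76, 8.36 and 9.17. Igfbp7 (an insulin-like growth factor binding protein of vessel walls), Dnase1l3 (a secreted nuclease) and Egfl7 differed at day 30 by -0.09, -0.21 and 0.23, none past the test.

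Of the 3 transcription factors none passed. Gata4, which sets the sinusoidal identity of liver endothelium, had 7.86 to 8.68 in em-KCs (median 8.22), 8.25, 8.53 and 8.14 at day 15 and 8.51, 8.18, 8.28, 8.17 and 8.43 at day 30. Sox18 had 7.61 to 8.56 (median 8.23), then 8.32, 8.02 and 7.88, and then 8.16, 8.21, 7.91, 7.95 and 8.41. Sox17, like Sox18 a SoxF factor of vessel development, differed by -0.03 at day 15 and 0.18 at day 30, and lay under the guide level on 4 of the 11 em-KC arrays. All mo-KC arrays lay inside the em-KC range for Gata4 and Sox18.

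**Figure D4:**
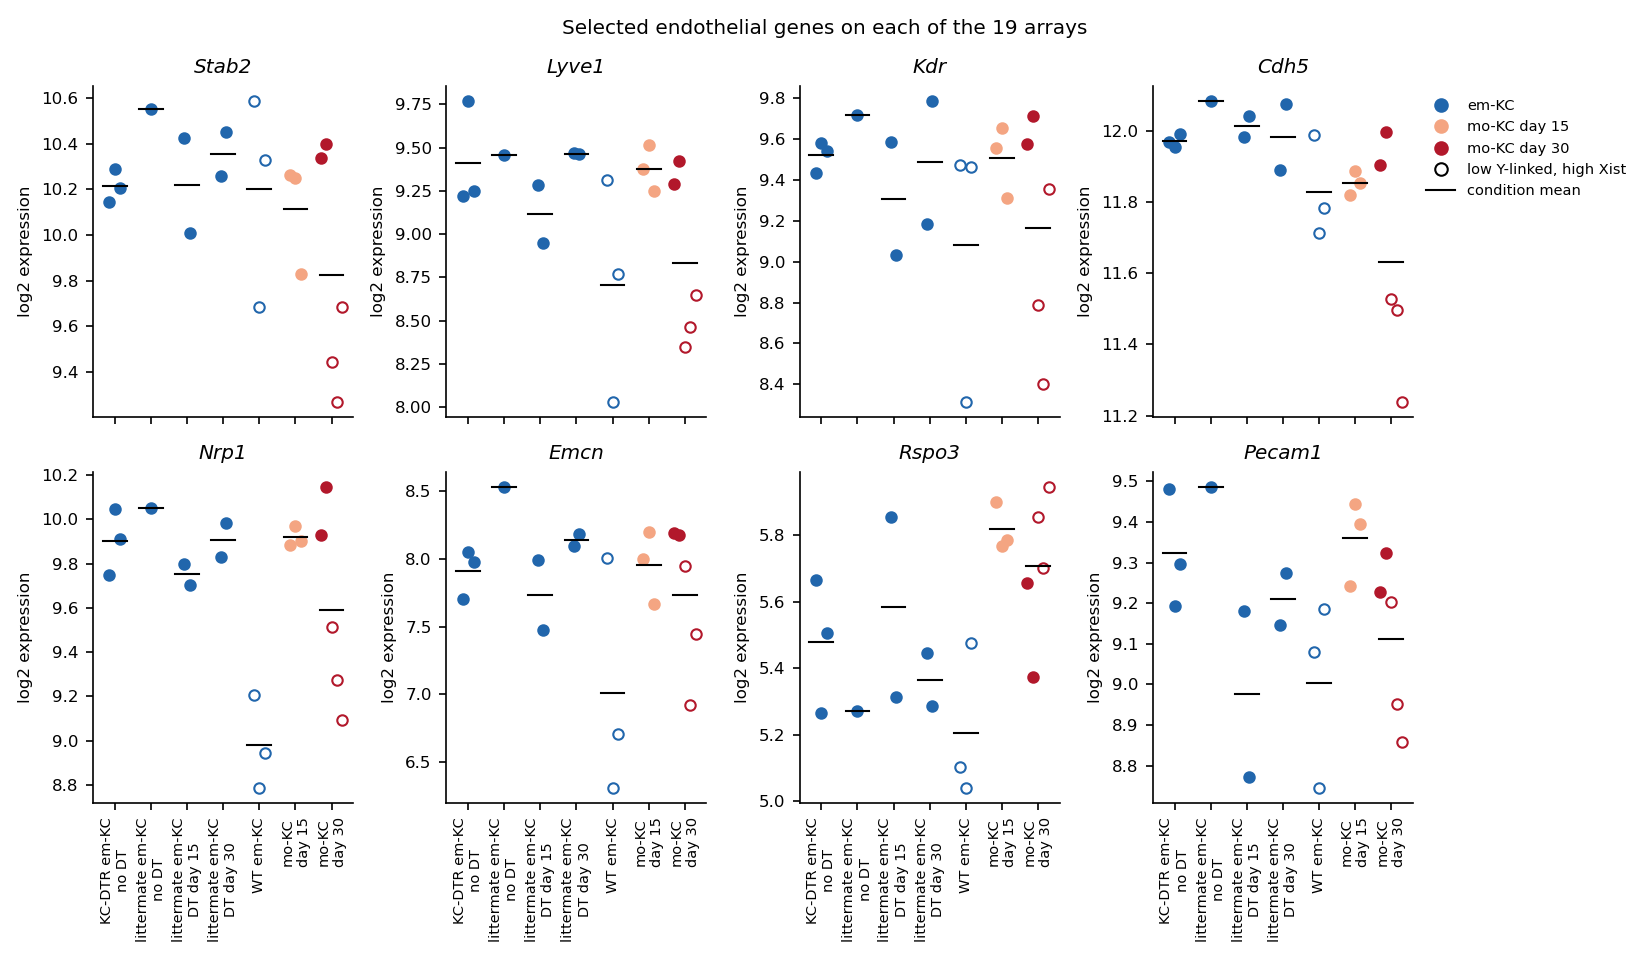
Log2 expression of 8 endothelial genes on each of the 19 arrays by condition; points are arrays, open points the Xist-high arrays and bars the mean of a condition, and each panel has its own scale. For Cdh5 the 3 open day 30 points, at 11.24 to 11.53, lie under all 11 em-KC arrays, and for Nrp1 the 3 WT em-KC points, at 8.79 to 9.21, lie under the 8 of the KC-DTR colony.

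At day 30 the values split by array set. For 21 of the 35 genes (60.0%) the 3 Xist-high arrays did not overlap the other 2, against 39.0% of all genes, and 20 of these were lower on the Xist-high arrays while Rspo3 was higher. The 20 held all 7 genes of the VEGF and angiopoietin receptor group together with Stab2, Lyve1, Oit3, Eng, Pecam1, Cdh5, Emcn, Plvap, Robo4, Mmrn2, Igfbp7, Dnase1l3 and F8. The mean of the 7 genes of that group was 8.28 ± 0.21 (SD, n = 3) on the Xist-high and 9.05 ± 0.12 (SD, n = 2) on the other day 30 arrays, and that of the 4 lectin and scavenger genes 9.68 ± 0.17 and 10.38 ± 0.08. The 3 transcription factors had 7.34 ± 0.19 and 7.32 ± 0.03. Hepatocyte markers ran the other way, with a mean of 8.50 ± 0.41 on the Xist-high and 7.50 ± 0.02 on the other day 30 arrays, and their part in the difference was not tested.

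The day 30 comparison was therefore also made within each array set. Within the 13 arrays, of which 2 were day 30 mo-KCs, none of the 35 genes passed (limma, smallest adjusted p = 0.837, 0 at an unadjusted p under 0.05), against 0.326% of all genes, and the median difference was 0.13, with 27 genes above 0 and 8 below. Stab2 and Cdh5 had differences of 0.08 and -0.05 there. Within the 6 Xist-high arrays, 3 against 3, none passed either after adjustment (limma, smallest adjusted p = 0.0569), against 4.15% of all genes. At an unadjusted p under 0.05 there were 5 of the 35, and no share over all genes was taken at that level. When the same 6 arrays were compared in a fit that took the spread from all 19 arrays, a choice made after seeing the data, 4 of the 35 genes passed, where 17.3% of all genes did. Cdh5 had a difference of -0.41 (SE 0.09, adjusted p = 0.00580) and Stab2 one of -0.73 (SE 0.19, adjusted p = 0.00962), while Rspo3 was higher by 0.63 (SE 0.15, adjusted p = 0.00679) and Sox17 by 0.46 (SE 0.15, adjusted p = 0.0437), all by limma. The WT em-KC means of Rspo3 (5.21) and Sox17 (5.18) lay under the guide level of 5.34, so the sizes of these last differences are uncertain. The Xist-high em-KCs were all of separate WT mice and the Xist-high mo-KCs of KC-DTR mice given DT. Mouse stock, genotype and DT can therefore not be told apart from cell origin here. Hepatocyte marker means were 9.68 to 9.86 in the former and 8.025 to 8.78 in the latter, and their part was not tested. In the fit with the spread of all 19 arrays, the day 30 difference itself differed between the array sets for none of the 35 genes after adjustment (limma interaction, smallest adjusted p = 0.0789 for Stab2). Of all genes 4.72% did after adjustment. At an unadjusted p under 0.05 there were 6 of the 35, and no share over all genes was taken at that level.

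Em-KCs were not uniform, either in these genes or over all genes. WT em-KCs were compared with the 8 em-KC arrays from the colony, and 4 of the 35 genes passed, all lower in WT em-KCs (limma), where 17.9% of all genes passed, 10.1% in that direction. Lower genes thus made up 11.4% of the 35, near the share over all genes. Of the 35 differences 30 were negative, with a median of -0.25 against 0.04 over all genes. All 7 genes of the VEGF and angiopoietin receptor group were among the 30. Without WT replicate 2 the median was -0.05.

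Nrp1 was the clearest of the 4. It had 9.21, 8.79 and 8.94 in WT em-KCs and 9.70 to 10.05 in the colony (median 9.87), a difference of -0.91 (SE 0.17, adjusted p = 0.00164 from limma). It was the only one of the 35 genes whose arrays did not overlap, which 17.7% of all genes did. Emcn had 8.01, 6.31 and 6.71 against 7.48 to 8.53 (median 8.02), a difference of -0.99 (SE 0.29, adjusted p = 0.0262 from limma). Bmp2 had 9.37, 8.33 and 8.63 against 8.93 to 10.01 (median 9.43), a difference of -0.66 (SE 0.19, adjusted p = 0.0242 from limma). Esam had 7.30, 6.21 and 6.54 against 6.90 to 7.73 (median 7.27), a difference of -0.57 (SE 0.19, adjusted p = 0.0456 from limma). For these last 3 genes WT replicate 1 lay inside the colony range and replicates 2 and 3 under it. Without WT replicate 2 or without WT replicate 3, Nrp1 alone of the 35 passed, where 2748 and 2548 of all 19938 genes did. Without the untreated littermate 2 of the 35 passed, where 3453 of all genes did. Without WT replicate 1 there were 8, with Igfbp7, Lyve1, Ramp2 and Tek added, where 2840 of all genes passed.

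Of the defining markers none passed. Stab2 had 10.59, 9.68 and 10.33 in WT em-KCs against 10.01 to 10.55 in the colony, Cdh5 11.99, 11.71 and 11.78 against 11.89 to 12.08, and Pecam1 9.08, 8.75 and 9.19 against 8.77 to 9.49. Their differences were -0.09, -0.17 and -0.23 (adjusted p = 0.806, 0.374 and 0.216 from limma). Lyve1, with 9.31, 8.03 and 8.77 against 8.95 to 9.77, had -0.65 (SE 0.24, adjusted p = 0.0689 from limma), and Kdr, with 9.47, 8.31 and 9.46 against 9.03 to 9.79, -0.40 (adjusted p = 0.312 from limma). Differences above 0 were those of Sox18 (0.28), Wnt2 (0.31), Ushbp1 (0.18), Wnt9b (0.15) and Gpr182 (0.13), none of which passed, although Sox18 passed as higher after a further quantile normalization of the arrays.

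Transcripts of other liver cells moved in the same comparison. Of 16 hepatocyte markers 14 were higher in WT em-KCs and 0 lower (limma, median difference 1.68), with Alb at 12.41 to 12.56 in WT em-KCs. The mean log2 expression of that list per array was 9.68 to 9.86 in WT em-KCs and 7.77 to 8.73 in the colony. Of 15 stellate cell markers 5 were higher and 0 lower (median 0.34), and of 6 platelet markers 1, Ppbp, was higher by 1.28. Of the 58 other endothelial genes 2 were higher (Cd300lg by 0.39 and Palmd by 0.43) and 5 lower, among them Klf4 (-1.17) and Tm4sf1 (-0.88). The platelet and the other endothelial counts were no larger a share than the 17.9% called over all genes. The part of these transcripts in the Nrp1, Emcn, Bmp2 and Esam differences was not tested.

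Within the colony, the knock-in was checked by setting the 3 untreated KC-DTR arrays against the 5 littermate arrays. Only 1 littermate array was of a mouse without DT and the others were of mice given DT. Genotype and DT can therefore not be fully told apart in this comparison. None of the 35 genes passed (limma, 0 at an unadjusted p under 0.05), and 0.0% of all genes did, with 269 higher and 500 lower at an unadjusted p under 0.05 among all genes. The median difference was -0.10, with 25 genes below 0. None of the 58 other endothelial genes passed in this comparison or in either comparison of mo-KCs with em-KCs (limma), where 1 of them had an unadjusted p under 0.05 at day 15, 7 at day 30 and 3 for the knock-in. Against em-KCs, 1 hepatocyte marker, Trf, was lower at day 30 (difference -0.50) and none at day 15, and 1 stellate marker, Ecm1, was lower at day 15 (-1.09) and at day 30 (-0.88), all by limma. Of the 16 hepatocyte markers 15 had negative differences at each day (median -0.61 at day 15 and -0.57 at day 30), with 8 at day 15 and 3 at day 30 lower at an unadjusted p under 0.05. The em-KCs of this comparison include the WT arrays, whose mean of that list was 9.68 to 9.86. That mean was 7.74 to 8.15 in day 15 and 7.48 to 8.78 in day 30 mo-KCs, overlapping the 7.77 to 8.73 of the colony em-KCs. The part of hepatocyte markers in the endothelial values of mo-KCs was not tested.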

How the data were processed

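RNA of sorted KCs was measured on Affymetrix Mouse Gene 1.0 ST arrays, 1 per sample. The authors deposited log2 values per probeset from the Robust Multi-array Average procedure (background correction, quantile normalization between arrays and summarization), whose version is not stated. Of 35556 probesets, 21789 had 1 gene symbol, and the one with the highest mean was kept for each of 19938 genes. Files were read with pandas 2.3.3 in Python 3.11.15.

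Groups were fitted with limma 3.58.1 (lmFit and eBayes) in R 4.3.3. One fit had em-KCs, day 15 and day 30 mo-KCs, and a fit of the 7 conditions gave the comparisons among em-KCs. Tests were two-sided, and p-values over all genes were adjusted (Benjamini-Hochberg, threshold 0.05). The fit was tested on simulated data, in which genes drawn from all 19938 were made to differ and noise was independent between genes. At 2-fold the fit called 95.5% of the changed genes for the day 15 comparison and 98.5% for day 30. At 1.5-fold it called 62.7% and 80.6%, with 43.3% for the 2 days against each other, 53.7% for WT em-KCs and 47.8% for the knock-in. The 35 genes were less precise than most and varied together, so these shares do not carry over to them. The number of arrays limits the precision. Replicates with the same number in different conditions did not deviate together (correlation -0.124 to 0.152 over 36 pairs). No pair among 171 pairs of arrays was identical. The alternatives covered the em-KC arrays used, probeset choice, a filter on dim genes, normalization, the plain t-test named in the methods, the variance model, the array set, the replicate block, and leaving out each array. The genes, gene lists and tests were chosen with earlier results of these data known. All 35 genes could be named, with values of every array for Stab2, Lyve1, Pecam1, Cdh5, Kdr, genes that passed a test and the 2 most variable genes of each role. Rspo3 was added for its p-values.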

Additional observations from a re-analysis of the deposited data

Results flagged for a closer look

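In groups of 4 to 10 arrays, 108 sets of values were screened for a single array far from the rest of its group, and 2 were marked. Chance alone marks about 1 in 20, or 5.4 of 108, so the 2 are fewer than chance gives. Both were in day 30 mo-KCs. Mmrn2 was lowest in replicate 4 at 7.802, with the other 4 arrays at 8.865 to 9.196. Plvap was lowest in replicate 5 at 6.703, with the others at 6.962 to 7.058.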

How the results depend on the processing

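No endothelial gene passed for day 15 mo-KCs, for the 2 days against each other or for the knock-in under any alternative, nor for day 30 mo-KCs except where given here. The day 30 count was 4 within the 6 Xist-high arrays with the spread of all 19 arrays, where 17.3% of all genes passed. It was 0 to 1 when single arrays were left out, where 93 to 316 of all 19938 genes passed. The median difference between the days was 0.11 within the 13 other arrays. In WT em-KCs against the colony the 4 genes became 2 after a further quantile normalization (Nrp1 lower and Sox18 higher), 2 with array weights and 1 with the methods' t-test. Over all 19938 genes the count was 3569 in the main fit and 2974, 2693 and 3954 in these alternatives. When single arrays were left out, 1 to 8 of the 35 passed, against 2548 to 3914 of all genes. Nrp1 passed in every alternative, at -1.02 to -0.77. Replicate numbers do not pair the arrays, and with the replicate block 3 of the 35 genes (Emcn, Esam and Nrp1) passed in WT em-KCs and 0 in the other comparisons. With that block 4014 of all genes passed in WT em-KCs. The cause of these shifts was not tested.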
